A study of Mus musculus with 12 samples.

Results

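Tbx3, Zfp42, Tcl1 and Gbx2 are 4 genes of the naive pluripotency network of mouse embryonic stem cells, and they are described here by the Mediator peaks around them. Their peaks were found by location alone. For each protein, peaks of its 4 libraries were merged into regions wherever they overlapped by at least 1 bp, and a region was taken for one of these genes if that gene's span was the nearest protein-coding gene within 100 kb (GRCm38/mm10). This gave 57 of 65291 MED1 regions and 59 of 66123 MED24 regions, for 4 of 21887 protein-coding genes. Tbx3 had 31 MED1 and 27 MED24 regions, Zfp42 had 18 and 24, Tcl1 had 6 and 6, and Gbx2 had 2 and 2. None of these regions was equally near to another gene.

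The cells were E14tg2a mouse embryonic stem cells of 129SV background, and in every group they carried cRAF-ErT2, a RAF kinase that 4-hydroxytamoxifen (4OHT) switches on and that activates ERK signalling. All cells had been grown with serum, LIF and Chir99021 (2 µM), which inhibits GSK3. For the last 24 h PD173074 (250 nM), which blocks FGF receptors, took the place of Chir99021. The 2 h groups then received 250 nM 4OHT for 2 h and the 0 h groups were left untreated. Chromatin was fixed with formaldehyde and disuccinimidyl glutarate. It was precipitated with an antibody to MED1, or with anti-FLAG for MED24, in clones a and b at each time, so each of the 4 groups holds 2 libraries. The labels do not say how the clones were made. The 12 samples also include 4 inputs, which are not analysed here. No vehicle-treated library and no library without the cassette was analysed, so 4OHT, time and ERK activation cannot be told apart.

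MED1 and MED24 are subunits of Mediator, the large complex that links enhancer-bound transcription factors to RNA polymerase II and that gathers at active enhancers and promoters. Naive pluripotency is the state of the preimplantation epiblast, which LIF and STAT3 sustain in culture, and ERK signalling is known for moving cells out of it. Tbx3 encodes a T-box transcription factor that helps to hold this state. Zfp42, also known as Rex1, encodes a zinc finger protein widely used as a marker of it. Tcl1 encodes a coactivator of the AKT kinase, and Gbx2 a homeobox transcription factor induced by LIF and STAT3.

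The 8 peak lists hold peaks called in each library on its own. They carry no counts of reads, and the depth of each library is unknown. A region was called gained if both 2 h libraries and neither 0 h library held a peak in it, lost in the reverse case, retained if all 4 held one, and mixed otherwise. The 2 h lists were longer: 41291 and 44811 MED1 regions were called at 2 h, against 36161 and 34995 at 0 h, and 40452 and 47259 MED24 regions at 2 h, against 39864 and 36479 at 0 h. The numbers of regions called per gene are to be read beside these totals.

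Regions of the embryonic stem cell genes Pou5f1, Sox2, Sall4, Utf1 and Lin28a were set beside those of other cell types. Each of these 5 genes had at least 1 retained region in each protein, 17 of 54 regions in MED1 (31.5%, against 30.9% of all regions) and 21 of 50 in MED24 (42%, against 32.6%). The fibroblast genes Col1a1, Col1a2, Col3a1, Twist1 and Thy1 had 2 of 12 MED1 and 3 of 13 MED24 regions retained, and the primitive endoderm genes Gata4, Gata6, Sox17 and Sox7 had 2 of 9 and 2 of 7, with no region at Sox7. The trophectoderm genes Cdx2, Elf5, Eomes and Gata3 had 9 of 33 (27.3%) and 8 of 35 (22.9%). These shares do not identify the cell type, which rests on the labels. Peaks are not expression, so these counts show occupancy only, and the part of other cell types in the results was not tested.

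The 4 genes did not move together. Zfp42 had more called regions at 2 h than at 0 h in both clones and both proteins, Tbx3 had fewer in both clones and both proteins, and Tcl1 had fewer MED1 regions in both clones. At Tbx3 most lost regions lay farther from the gene than the gained ones. Over the 4 genes, 12 MED1 regions were gained (21.1%, against 17.6% of all MED1 regions), 9 were lost (15.8%, against 6.9%) and 16 retained (28.1%, against 30.9%). In MED24 9 regions were gained (15.3%, against 16% of all MED24 regions), 6 were lost (10.2%, against 8.83%) and 20 retained (33.9%, against 32.6%). The shares of gained and retained regions, and the MED24 share of lost ones, were thus close to those of all regions, while the MED1 share of lost regions was higher. No test was made of these shares, and with 2 libraries a group no call of a single region can be tested. With 1 library left out, fewer libraries decide each call. The MED1 lost count was then 14 without 2 h clone b, 15 without 0 h clone a and 14 without 0 h clone b. The MED24 gained count was 15 without 2 h clone a and 14 without 0 h clone a, and the lost count 10 without 0 h clone b. The clones pair the 0 h and 2 h libraries, so regions were also counted within each clone and averaged over that pairing. By that count 15.5 MED1 regions were gained and 15.5 lost, and 16 MED24 regions were gained and 11.5 lost. The same count was not made over all regions.

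Tbx3 was called in 14 and 17 MED1 regions in the 2 h libraries of clones a and b, against 18 and 19 in the 0 h libraries. The means were 15.5 ± 2.12 at 2 h and 18.5 ± 0.707 at 0 h (SD, n = 2 each), and the ranges did not overlap. The MED24 numbers were 14 and 17 at 2 h and 20 and 18 at 0 h, with means of 15.5 ± 2.12 and 19.0 ± 1.41 (SD, n = 2 each). Over all regions more were called at 2 h than at 0 h in both clones, the other direction. An exact permutation test (two-sided) gave p = 0.333 for each protein, which is the lower limit for 2 libraries against 2. The bases covered by peaks differed more than the number of regions. MED1 peaks covered 7.72 and 10.3 kb at 2 h, against 14.6 and 14.3 kb at 0 h, and MED24 peaks covered 7.46 and 9.93 kb at 2 h, against 16.4 and 13.0 kb at 0 h.

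Zfp42 was called in 15 and 16 MED1 regions at 2 h and 10 and 11 at 0 h, with means of 15.5 ± 0.707 and 10.5 ± 0.707 (SD, n = 2 each). Its MED24 numbers were 20 and 23 at 2 h and 14 and 12 at 0 h, with means of 21.5 ± 2.12 and 13.0 ± 1.41 (SD, n = 2 each). The groups did not overlap in either protein, and the lists as a whole were also longer at 2 h. With lists of equal length, the 20000 highest ranked peaks of each library, Zfp42 had 3 gained and 1 lost MED1 regions in place of 5 and 1, and 2 gained and 0 lost MED24 regions in place of 5 and 0. The exact two-sided permutation p was 0.333 for each protein (n = 2 each), the smallest possible. MED1 peaks at Zfp42 covered 27.0 and 29.3 kb at 2 h, against 22.7 and 22.8 kb at 0 h. MED24 peaks covered 17.1 and 21.9 kb at 2 h, against 15.9 and 14.7 kb at 0 h, a small difference in clone a. All 4 genes together had 33 and 37 MED1 regions called at 2 h, against 34 and 36 at 0 h, so the opposite differences of Zfp42 and of Tbx3 and Tcl1 cancelled in the sum. In MED24 they did not: the 4 genes had 38 and 45 regions called at 2 h, against 40 and 34 at 0 h, fewer in clone a and more in clone b (exact permutation p = 0.667, n = 2 each).

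**Figure D1:**
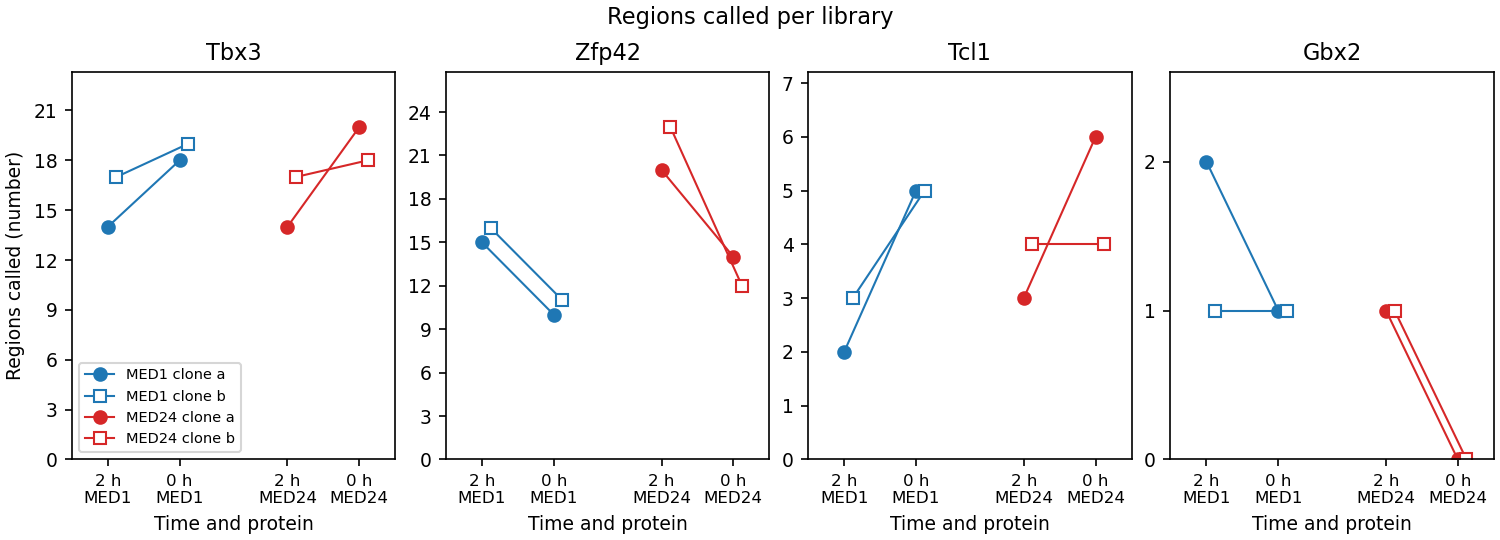
Number of regions called (y axis) for each gene at 2 h and 0 h (x axis) in MED1 (blue) and MED24 (red); lines join the libraries of one clone (filled circles, clone a; open squares, clone b), shifted sideways so that both can be seen. Both clones of both proteins have more Zfp42 regions at 2 h (15 to 23) than at 0 h (10 to 14), and fewer Tbx3 regions (14 to 17 at 2 h, 18 to 20 at 0 h).

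Tbx3 spans chr5:119670534-119684724 and has wide gene-free flanks: Med13l is 905 kb away on the side of lower coordinates and Tbx5 is 112 kb away on the other. No region called within 100 kb of Tbx3 was nearer to another gene in either protein. Of its MED1 regions 7 were gained and 6 lost, or 22.6% and 19.4%, against 17.6% and 6.9% of all MED1 regions. Of its MED24 regions 4 were gained and 5 lost, or 14.8% and 18.5%, against 16% and 8.83% of all. The lost regions lay mostly far out on the lower side and the gained ones nearer the gene. Of the 6 lost MED1 regions 5 lay at least 56.2 kb from the gene on that side and 1 within it, whereas 5 of the 7 gained ones lay 3.95 to 52.3 kb out on the same side. MED24 had 4 of 5 lost regions at 56.2 to 89.8 kb and all 4 gained ones at 3.94 to 52.4 kb, but the other lost region, at 43.5 kb, lay among them. These stretches were noticed in the data and were not tested. With 1 library left out, fewer libraries decide each call, and the number lost at Tbx3 was higher. In MED1 it was 12 without 0 h clone a and 11 without 0 h clone b, and in MED24 8 without 0 h clone b. The 5 retained MED1 regions became 8 without 2 h clone a.

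The distal stretch was dominated by a region 82.6 kb from Tbx3 in MED1 and 82.7 kb in MED24, at chr5:119584200-119587935 in MED1 and chr5:119584092-119587862 in MED24. It was retained, but its rank differed greatly between the times. Ranks are given as percentiles within a library, where 100 is the strongest, either among all regions called in that library or, to compare libraries, among retained regions alone, which are the same 20152 MED1 or 21529 MED24 regions in each library. Among retained regions it stood at the 35.6th and 31.8th percentile in MED1 at 2 h, against 98.0 and 99.3 at 0 h. In MED24 it stood at 50.7 and 33.6 at 2 h, against 99.0 and 99.8 at 0 h. The groups were far apart in both proteins, and at 0 h the region stood near the top of each list.

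The mean shift of this region was -64.9 ± 3.67 points in MED1 and -57.2 ± 12.7 points in MED24 (SD, n = 2 clones). It fell in both proteins: on the normal score scale of ranks the difference was -2.68 ± 0.23 in MED1 (SE; limma adjusted p = 1.14e-09) and -2.76 ± 0.19 in MED24 (SE; limma adjusted p = 1.39e-08). Across all retained regions, 8.98% fell and 9.72% rose in MED1, and 14.4% fell and 13.5% rose in MED24. These tests used a spread that follows rank. With one constant spread for all regions this region still passed, but with limma adjusted p = 0.00881 in MED1 and 0.0131 in MED24. The size of p thus depended on the setting. The peaks were also narrower. MED1 peaks there were 415 and 374 bp wide at 2 h, while at 0 h clone a had peaks of 2528 and 1131 bp and clone b peaks of 3065 and 495 bp. The authors' fold enrichment at the strongest MED1 summit was 6.46 and 4.61 at 2 h, against 16.1 and 31.1 at 0 h.

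Around that region 4 MED1 regions were lost. The one at chr5:119579338-119580548, 89986 bp out, stood at the 78.9th and 84.7th percentile of the regions called in the 0 h libraries. Its MED24 counterpart, chr5:119579323-119580727, was also lost and stood at 95.6 in both 0 h libraries. In each protein no lost region of the 4 genes ranked higher. The MED1 region at chr5:119582546-119582891 stood at 7.63 and 41.5 at 0 h and its MED24 counterpart, chr5:119582571-119583015, at 52.7 and 62.7. The region at chr5:119588915-119589424 stood at 48.8 and 52.0 in MED1 at 0 h, and chr5:119588858-119589385 at 53.4 and 43.3 in MED24. All of these were lost in both proteins. A weaker one at chr5:119588327-119588680, at 6.38 and 28.2 in MED1, was called in MED24 in 0 h clone a alone and so counted as mixed there.

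A second distal group lay about 56 kb from Tbx3. The MED1 region chr5:119613894-119614298 was lost, at 57.0 and 63.5 at 0 h, and so was the MED24 region chr5:119613363-119614307, at 65.9 and 29.9. Its neighbour in MED24, chr5:119614391-119615490, was retained and stood at 24.7 and 6.31 among retained regions at 2 h, against 85.7 and 86.7 at 0 h. It fell by 70.7 ± 13.6 points (SD, n = 2 clones), with a normal score difference of -2.20 ± 0.34 (SE; limma adjusted p = 6.3e-05). With one constant spread the limma adjusted p was 0.0198. In MED1 the same place had no peak in 2 h clone a and stood at 34.1 among all regions called in 2 h clone b, against 84.3 and 79.5 at 0 h. The last lost MED24 region, chr5:119626655-119627009, was weak, at 4.89 and 18.3 at 0 h, and had no MED1 region.

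Nearer to Tbx3, 5 MED1 regions were gained on the same side. The region chr5:119638333-119639160, 31.4 kb out, stood at the 71.0th and 73.9th percentile of the regions called in the 2 h libraries, and its MED24 counterpart, chr5:119638315-119639128, at 76.2 and 78.9. The region chr5:119666184-119666580, 3.95 kb out, stood at 63.0 and 66.7 in MED1, and chr5:119665734-119666591 at 83.9 and 73.5 in MED24. The region chr5:119646847-119647281 stood at 63.0 and 55.9 in MED1, and chr5:119646940-119647263 at 50.1 and 47.3 in MED24. A region at chr5:119617792-119618203 stood at 56.3 and 56.5 in MED1, and chr5:119617795-119618100 at 60.1 and 74.0 in MED24. All 4 were gained in both proteins, with ranks in the middle or upper part of the 2 h lists. The region chr5:119634803-119635395, at 71.6 and 79.5, was gained in MED1, while MED24 held a peak there in 0 h clone a as well.

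On the side of higher coordinates 2 MED1 regions were gained at Tbx3. The one 36.0 kb out, chr5:119720755-119721403, stood at 77.2 and 76.2 at 2 h. MED24 stood there at 91.4 and 89.2 at 2 h and was also called in 0 h clone b, at 13.4, so it was not gained by the same rule. The other, chr5:119691049-119691382, stood at 10.7 and 46.6 and had no MED24 region. The lost MED1 region within the gene, chr5:119681823-119682183, stood at 58.9 and 54.1 at 0 h. MED24 was called there in both 0 h libraries and in 2 h clone a.

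**Figure D2:**
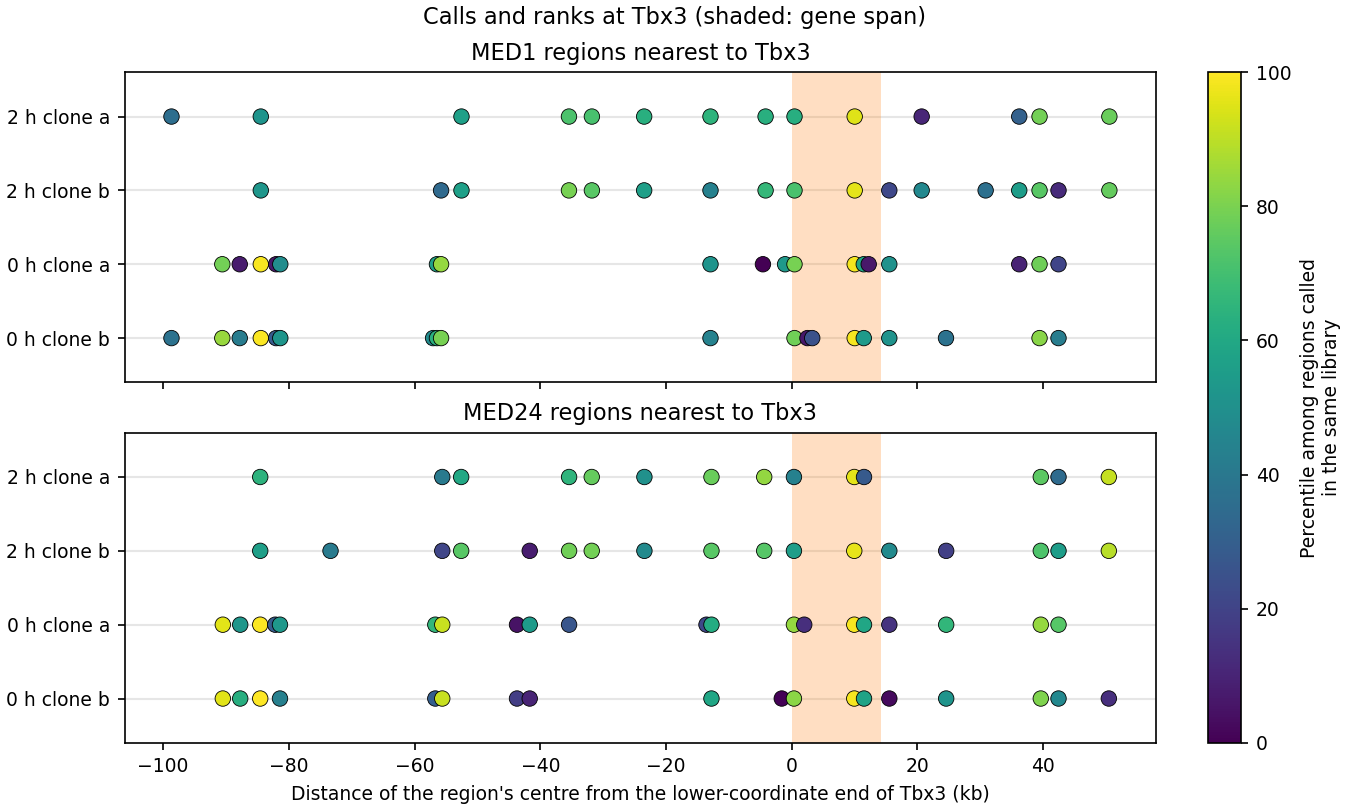
Regions nearest to Tbx3 by library (rows) and by the distance of their centre from the end of the gene with the lower coordinate (x axis, kb); each circle is a called region, coloured by its percentile among all regions called in that library, and the shaded band is the gene. On the far left, from the region at 89.8 kb to that at 81.1 kb, the 0 h rows hold several circles and the 2 h rows a single one of middle rank, while the gained regions from 52.4 to 3.94 kb stand in the 2 h rows.

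At the gene itself the lost MED1 region above was 1 of several that 2 h libraries did not hold, and 2 regions were retained in each protein. The region over the lower-coordinate end, chr5:119669854-119672113 in MED1, stood at 48.2 and 56.0 among retained regions at 2 h, against 65.0 and 64.4 at 0 h, and its normal score difference of -0.32 ± 0.30 did not pass (SE; limma adjusted p = 0.533). In MED24 the same place, chr5:119669648-119672139, fell to 27.2 and 33.2 at 2 h, against 73.8 and 73.7 at 0 h, with a difference of -1.15 ± 0.29 (SE; limma adjusted p = 0.00565). The second region within the gene, chr5:119679597-119681524 in MED1, was the highest ranked at Tbx3 after treatment. It stood at 93.1 and 93.6 at 2 h, against 97.2 and 98.0 at 0 h, and its MED24 counterpart, chr5:119679392-119681591, stood at 94.1 and 93.9, against 97.7 and 97.9. These small shifts, -4.24 ± 0.144 points in MED1 and -3.84 ± 0.225 in MED24 (SD, n = 2 clones), passed with limma adjusted p = 0.0449 and 0.00788. The MED1 call was lost without 2 h clone a, 2 h clone b or 0 h clone b (limma adjusted p = 0.166, 0.118 and 0.144), on the percentile scale (0.0924) and with a −log10 q of at least 10 (0.0883). With one constant spread in place of a spread that follows rank, neither passed (limma adjusted p = 0.313 and 0.201). That setting called 3.98% of all retained MED1 regions lower and 6.36% higher, and 8.76% and 8.19% of the MED24 ones.

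Other retained regions at Tbx3 did not pass. The region 12.7 kb out, chr5:119657413-119657821 in MED1 and chr5:119657425-119658117 in MED24, had higher ranks at 2 h in both clones of both proteins, by 11.8 ± 16.2 points in MED1 and 20.9 ± 7.6 in MED24 (SD, n = 2 clones; limma adjusted p = 0.704 and 0.198). The region 24.6 kb out on the higher side, chr5:119709349-119710593, stood at 69.5 and 60.1 in MED1 at 2 h and 62.7 and 70.6 at 0 h, so the groups overlapped. Its MED24 counterpart, chr5:119709736-119710604, stood lower at 2 h in both clones, at 64.8 and 55.6, against 73.8 and 70.9 at 0 h (limma adjusted p = 0.33). Over all its retained regions Tbx3 had a mean shift of -14.4 ± 5.27 points over 5 MED1 regions and -26.3 ± 0.809 points over 7 MED24 regions (SD, n = 2 clones). The medians were smaller, -4.24 and -17.5 points. In MED1 the region at 82.6 kb had by far the largest shift. In MED24 the largest were -70.7 points at chr5:119614391-119615490 and -57.2 points at 82.7 kb. The MED1 mean was -7.94 without 0 h clone b and -1.68 within 20 kb of the gene, and the MED24 mean -8.83 within 20 kb and -3.01 with the 20000 highest ranked peaks per library. Over all retained regions the median shift stood at -1.44 points for MED1, against -0.0604 for MED24.

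Zfp42 spans chr8:43295067-43307009 on the minus strand, so that higher coordinates are upstream of its start. Its promoter, from 250 bases before to 50 after the start (chr8:43306960-43307259, minus strand, GRCm38.p6, from RefSeq), lay wholly under peaks in all 8 libraries, and is shown because, of the 3 promoters found in the table, it is the one that every library covered. Of 8 motif cores searched on both strands it held that of POU5F1, ATGCAAA, once, on the opposite strand from base 66 of the window, which is in capitals here.

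Zfp42 promoter: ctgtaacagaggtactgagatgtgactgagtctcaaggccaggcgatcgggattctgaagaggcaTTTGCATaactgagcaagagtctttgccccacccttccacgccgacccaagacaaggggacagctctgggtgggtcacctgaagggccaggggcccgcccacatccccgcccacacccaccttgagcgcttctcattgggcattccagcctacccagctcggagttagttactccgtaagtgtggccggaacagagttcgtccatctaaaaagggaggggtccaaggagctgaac

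That core occurred in 4.63% of the 32817 promoter windows of the same length in the table. The other cores, of which the Zfp42 window held none, were GGGCGTG for KLF factors (in 8.43% of windows), AAGGTCA for ESRRB (4.72%), CATTGTT for SOX2 (3.78%), GGTGTGA for T-box factors (3.98%), CGGAAGT for ETS factors (6.41%), TGAGTCA for AP-1 (5.2%) and ATCAAAG for TCF factors (3.73%). The region over this promoter, chr8:43301740-43308033 in MED1 and chr8:43303394-43308013 in MED24, was retained. It stood at 96.7 and 95.8 among retained MED1 regions at 2 h, against 95.8 and 95.9 at 0 h. In MED24 it stood at 98.4 and 98.2 at 2 h, against 98.2 and 98.1 at 0 h. Its normal score difference was 0.05 ± 0.17 in MED1 and 0.03 ± 0.11 in MED24 (SE; limma adjusted p = 0.886 and 0.891).

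The highest ranked region at Zfp42 lay 13.4 kb upstream, at chr8:43320405-43322212 in MED1 and chr8:43320376-43322121 in MED24. It stood at 98.8 and 99.6 among retained MED1 regions at 2 h, against 99.5 and 99.7 at 0 h, and at 99.7 and 99.8 in MED24 at 2 h, against 99.7 and 99.8 at 0 h. No shift was detected in either protein (limma adjusted p = 0.287 and 0.932).

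Farther upstream Zfp42 gained regions. The strongest, 24.5 kb upstream at chr8:43331531-43332430, was called in both 2 h MED1 libraries and in neither at 0 h, and stood at the 96.8th and 98.3rd percentile of all regions called at 2 h. Its fold enrichment in the authors' lists was 15.4 and 21.2. MED24 stood at 96.2 and 97.4 there at 2 h, while at 0 h clone a held a weak peak, at 15.9, and clone b none, so the MED24 region counted as mixed. No other gained region of the 4 genes ranked as high.

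Its neighbour 26.4 kb upstream, chr8:43333362-43333827, was retained in MED1 and rose. It stood at 80.2 and 71.0 among retained regions at 2 h, against 17.5 and 8.74 at 0 h, a mean shift of 62.5 ± 0.282 points (SD, n = 2 clones). The normal score difference was 1.85 ± 0.37 (SE; limma adjusted p = 0.000412, and 0.0173 with one constant spread). In MED24 the same place, chr8:43333266-43333855, stood at 76.3 and 62.5 at 2 h and at 34.4 and 73.5 at 0 h. Those groups overlapped, and the difference did not pass (limma adjusted p = 0.374), although without 0 h clone b it did (0.0418).

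The region 46.4 kb upstream, chr8:43353411-43354244, also rose in MED1, standing at 96.0 and 85.3 at 2 h, against 76.6 and 66.5 at 0 h. The mean shift was 19.1 ± 0.367 points (SD, n = 2 clones; limma adjusted p = 0.0134), but without 2 h clone a the adjusted p was 0.394, and with one constant spread 0.185. In MED24 it stood at 95.5 and 93.8 at 2 h and at 91.2 and 88.2 at 0 h, and the shift, 4.36 points in one clone and 5.64 in the other, did not pass (limma adjusted p = 0.0826).

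The other gained Zfp42 regions were weaker and shared by both proteins. Upstream they lay at chr8:43329307-43329638 (22.3 kb), chr8:43338687-43339039 (31.7 kb) and chr8:43359404-43359795 (52.4 kb) in MED1, with percentiles of 16.4 to 65.6 in the 2 h libraries. Their MED24 counterparts were chr8:43329315-43329620, chr8:43338711-43339020 and chr8:43359284-43359932, with percentiles of 7.29 to 49.5. Downstream of the gene a region 33.7 kb away, chr8:43260971-43261388, was gained in MED1 at 85.5 and 88.5, and chr8:43260958-43261410 in MED24 at 73.5 and 72.0. MED24 also gained a weak region within the gene, chr8:43298305-43298766, at 0.178 and 11.5, inside a MED1 region that all 4 libraries held. In all, 5 of 18 MED1 regions (27.8%, against 17.6% of all regions) and 5 of 24 MED24 regions (20.8%, against 16%) were gained.

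Only 1 Zfp42 region was lost by this rule, the MED1 region chr8:43352223-43352636, 45.2 kb upstream, which stood at 55.7 and 49.6 at 0 h. MED24 was called there in all 4 libraries, at chr8:43352278-43352653. Of the retained regions of Zfp42, 9 in MED1 and 11 in MED24, the mean shift was 16.2 ± 3.13 points in MED1 and 2.07 ± 3.73 in MED24 (SD, n = 2 clones). The MED1 mean was carried by a few regions, since the median shift was 9.39 points. Among them the MED1 region 3.14 kb upstream, chr8:43310151-43311565, differed between the clones. Clone a stood at 58.4 at 2 h and 2.03 at 0 h, and clone b at 46.0 and 43.3. It did not pass with all libraries (limma adjusted p = 0.104) and passed without 0 h clone b (0.00334). With 1 library left out, Zfp42 had 8 gained MED1 regions without 2 h clone b, and 9 and 8 gained MED24 regions without 2 h clone a and without 0 h clone a.

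**Figure D3:**
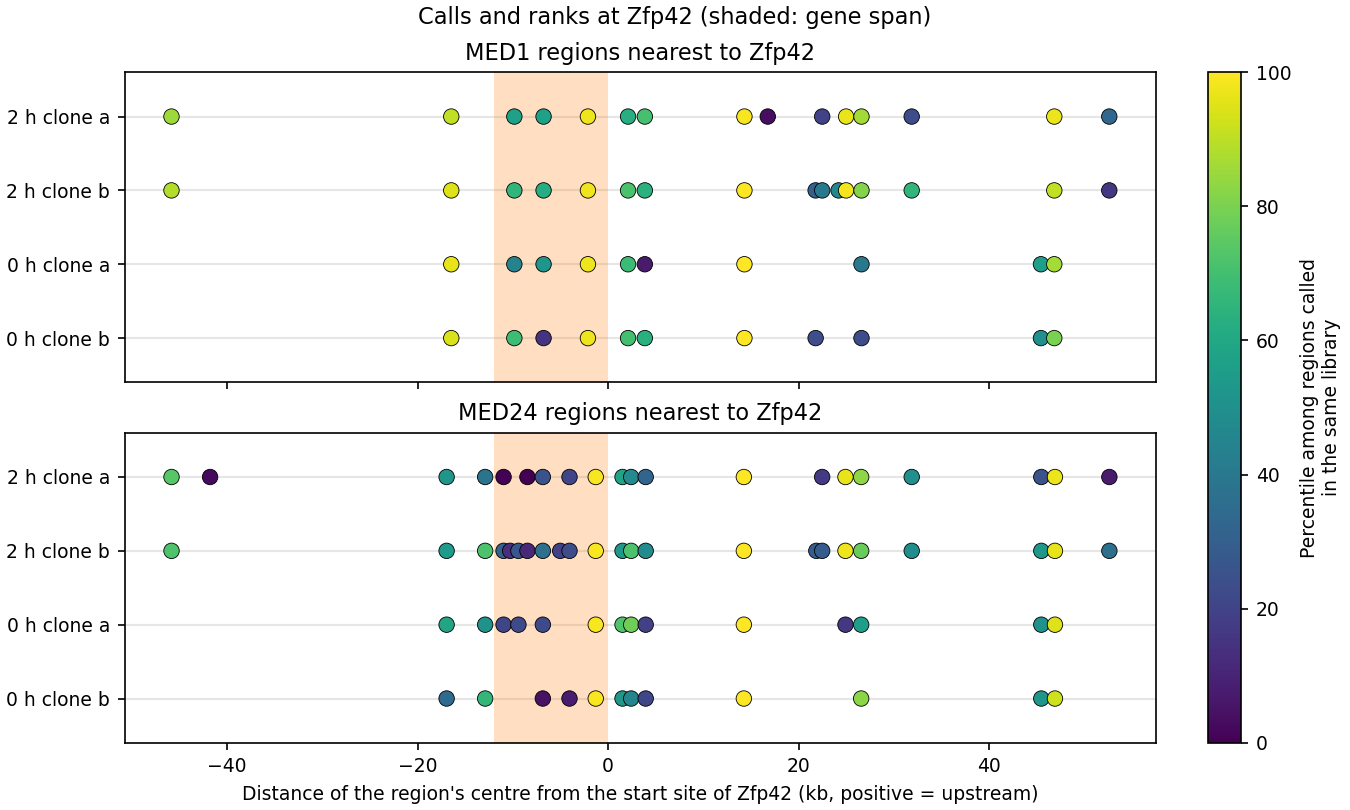
Regions nearest to Zfp42 by library (rows) and by the distance of their centre from the start site (x axis, kb, positive upstream); each circle is a called region, coloured by its percentile among all regions called in that library, and the shaded band is the gene. The promoter and the region 13.4 kb upstream are bright in every row, whereas the region at 24.5 kb is bright in the 2 h rows and absent or dark at 0 h.

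Tcl1 spans chr12:105216753-105222737, also on the minus strand, with the related gene Tcl1b4 9.76 kb downstream. Of its 6 MED1 regions 2 and 3 were called at 2 h, against 5 and 5 at 0 h, and of its 6 MED24 regions 3 and 4, against 6 and 4. The MED1 groups did not overlap (exact two-sided permutation p = 0.333, n = 2 each, the smallest possible), and the MED24 groups did (exact permutation p = 0.667). No region was gained in either protein with all libraries. With 1 left out, 4 MED1 regions were lost and 1 gained without 2 h clone b, 3 were retained without 2 h clone a, and 2 MED24 regions were lost without 2 h clone b or 0 h clone b and 1 gained without 0 h clone a. The promoter is shown because the peaks over it at 0 h were not called at 2 h. It lies at chr12:105222688-105222987 (minus strand, GRCm38.p6, RefSeq) and held none of the 8 motif cores, so it has no capitals.

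Tcl1 promoter: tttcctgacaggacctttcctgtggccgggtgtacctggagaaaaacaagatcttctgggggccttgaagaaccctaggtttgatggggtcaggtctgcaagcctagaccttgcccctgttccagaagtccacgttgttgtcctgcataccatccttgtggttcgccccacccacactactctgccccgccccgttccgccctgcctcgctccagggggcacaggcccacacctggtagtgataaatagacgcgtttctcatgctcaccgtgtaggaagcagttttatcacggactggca

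The lost MED1 region over it, chr12:105222429-105223330, was weak, at 17.9 and 24.3 among the regions called at 0 h. The peak of 0 h clone a reached only 20 bases of this window and that of clone b all 300. MED24 was called there in 0 h clone a alone. The second lost MED1 region, 26.1 kb upstream at chr12:105248824-105249223, stood at 51.6 and 49.2 at 0 h, and MED24 was called at its place in both 0 h libraries and in 2 h clone b. The lost MED24 region, 36.1 kb upstream at chr12:105258794-105259574, was stronger, at 81.7 and 79.1 at 0 h. MED1 was called there in both 0 h libraries and in 2 h clone b.

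The region next to the Tcl1 promoter, 1.64 kb upstream at chr12:105224380-105225365, was retained. In MED1 it stood at 37.6 and 41.2 at 2 h, against 60.5 and 45.9 at 0 h, and in MED24 (chr12:105224578-105225286) at 24.7 and 19.3, against 50.3 and 33.3. Ranks at 2 h were below those at 0 h in both clones and both proteins, but neither difference passed (limma adjusted p = 0.568 and 0.351). A MED24 region 99.4 kb upstream, chr12:105322090-105322639, had the highest rank of Tcl1, at 87.5 and 89.1 at 2 h against 89.6 and 84.6 at 0 h. It lies just inside the limit of 100 kb. The next region outside it, 113.69 kb away in MED1 and 113.48 kb in MED24, was retained in both proteins, at 9.97 and 27.3 among the MED1 regions called at 2 h and 18.9 and 17.0 among those called at 0 h. At Tbx3 the farthest MED1 region inside the limit, at 98.5 kb, was called in 2 h clone a and 0 h clone b, at 35.9 and 37.5, and the next one outside, at 171.8 kb, in 2 h clone b alone, at 12.6.

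Gbx2 spans chr1:89927962-89931176 on the minus strand, and the gene LOC102637806 lies 0.899 kb away on the upstream side, so that regions farther upstream fall to that gene. By the rule Gbx2 had 2 regions in each protein and with all peaks none was gained or lost. The promoter is shown because MED1 peaks reached it at 0 h and not at 2 h. It lies at chr1:89931127-89931426 (minus strand, GRCm38.p6, RefSeq) and held none of the 8 motif cores.

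Gbx2 promoter: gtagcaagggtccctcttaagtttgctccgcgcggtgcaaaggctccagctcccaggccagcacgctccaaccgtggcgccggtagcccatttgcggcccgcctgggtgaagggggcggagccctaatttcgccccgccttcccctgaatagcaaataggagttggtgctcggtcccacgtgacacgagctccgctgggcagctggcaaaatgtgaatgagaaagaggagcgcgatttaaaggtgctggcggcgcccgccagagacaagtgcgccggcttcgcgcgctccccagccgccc

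MED1 peaks covered 196 and 118 bases of this window in 0 h clones a and b, and 0 bases in each 2 h library. They belong to the region chr1:89930182-89931322, which counted as retained, since each 2 h library also held a peak in it. Those 2 h peaks, chr1:89930287-89930575 in clone a and chr1:89930782-89930981 in clone b, did not overlap each other. Among retained regions it stood at 0.943 and 0.459 at 2 h, against 24.8 and 23.2 at 0 h, a shift of -23.3 ± 0.782 points (SD, n = 2 clones). Its difference of -1.77 ± 0.64 on the normal score scale did not pass (SE; limma adjusted p = 0.0523), while with one constant spread it did (0.0152). The region was no longer retained when peaks had to overlap by 200 bp to be merged, or without 0 h clone b. With a −log10 q of at least 10, or with the 20000 highest ranked peaks per library, 1 MED1 region of Gbx2 was lost and 0 retained. The other MED1 region of Gbx2 was called in 2 h clone a alone, at 7.98. MED24 was called at Gbx2 in 1 region in each 2 h library, at 3.47 and 25.6, and in none at 0 h. Without 2 h clone b 1 MED1 region counted as gained, and without either 2 h library 1 MED24 region did.

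Within 100 kb of Gbx2, whichever gene was nearest, there were 10 MED1 and 7 MED24 regions, of which 8 and 5 were nearer to another gene, such as Agap1 or LOC102637806. Of these 10 MED1 regions 3 and 5 were called at 2 h, against 5 and 3 at 0 h, and of the 7 MED24 regions 5 and 6, against 3 and 2. Among the regions nearer to other genes, 1 MED1 region was lost, and 1 MED24 region was gained and 2 retained.

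**Figure D4:**
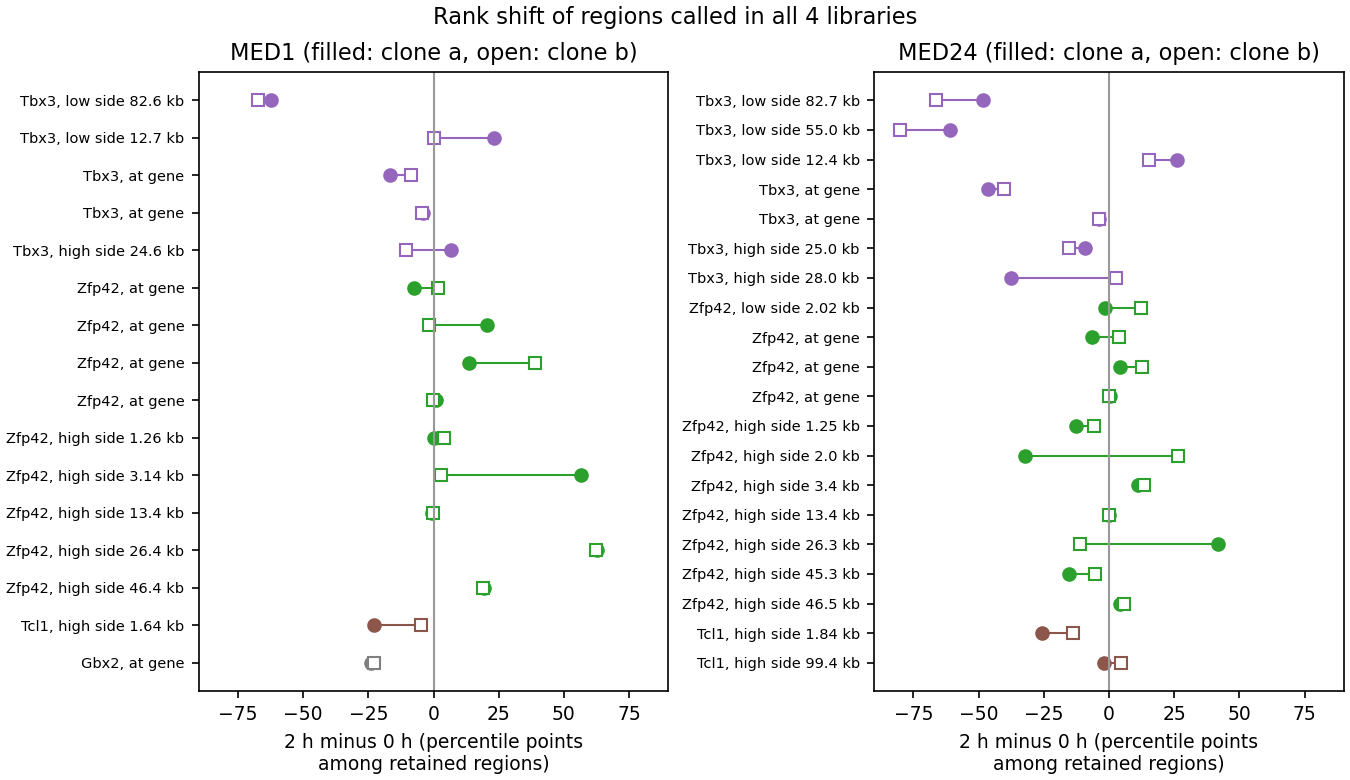
Shift in rank (x axis, 2 h minus 0 h, in percentile points among retained regions) of each region called in all 4 libraries of MED1 (left) or MED24 (right), labelled by gene, side and distance (y axis; low and high side mean lower and higher coordinates); filled circles are clone a, open squares clone b. The Tbx3 region near 82.6 kb lies far to the left in both proteins, and the Zfp42 region at 26.4 kb far to the right in MED1.

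Regions retained by the 4 genes were few and moved in both directions. In MED1 16 were retained, of which 4 passed: 2 fell, both at Tbx3, and 2 rose, both at Zfp42. In MED24 20 were retained, of which 4 passed, all at Tbx3 and all lower at 2 h. Over all retained regions 9.72% passed as higher and 8.98% as lower in MED1, and 13.5% and 14.4% in MED24. No test was made of the counts that passed. Without 0 h clone b, 8 MED24 regions passed. With one constant spread 3 passed in each protein, the MED1 region of Gbx2 among them. The mean percentile over the retained MED1 regions was 61.5 and 59.0 at 2 h, against 57.3 and 58.5 at 0 h, a shift of 2.30 ± 2.55 points (SD, n = 2 clones; exact permutation p = 0.333). In MED24 it was 50.4 and 50.9 at 2 h, against 61.1 and 58.2 at 0 h, a shift of -8.99 ± 2.42 points (SD, n = 2 clones; exact permutation p = 0.333, the smallest possible). Neither mean had a stable sign. In MED1 it was -1.11 without 2 h clone a, and the median over regions was -0.00806. In MED24 the median was -2.14, the mean ran from -7.7 to -5.03 with 1 library left out, farthest from the full value without 2 h clone a, and it was 2.21 with the 20000 highest ranked peaks per library.

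MED1 and MED24 were measured in the same pair of clones, so their calls are not independent of each other. Of the 57 MED1 regions 46 overlapped a MED24 region, and of the 59 MED24 regions 50 overlapped a MED1 region. Of the 12 gained MED1 regions 8 overlapped a gained MED24 region, which were 8 of the 9 gained in MED24. Of the 9 lost MED1 regions 4 overlapped a lost MED24 region, all at Tbx3, or 4 of the 6 lost in MED24. No region gained in one protein overlapped a region lost in the other. The same overlaps were not counted over all regions, so these counts do not show whether the 4 genes differ from the rest.

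The other 11 genes of the naive pluripotency list, Nanog, Esrrb, Klf2, Klf4, Klf5, Tfcp2l1, Nr0b1, Nr5a2, Prdm14, Dppa3 and Fgf4, encode mostly transcription factors of the same network. They had 12 of 162 MED1 regions gained (7.41%) and 30 lost (18.5%), and 13 of 149 MED24 regions gained (8.72%) and 29 lost (19.5%). More regions were lost than gained at 8 of these genes in MED1 and at 7 in MED24, and more were gained at 1 and 3. The shares gained at Zfp42, 27.8% and 20.8%, lay above both this list and all regions. At Tbx3 the MED1 share gained, 22.6%, also lay above both, and the MED24 share, 14.8%, lay between them. The shares lost at Tbx3, 19.4% in MED1 and 18.5% in MED24, lay near those of the list. No test was made of these differences.

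Genes whose pattern of calls was most like that of each of these genes were sought over the 8 libraries, by the distance between the shares of a gene's regions called in each library. Only the 4577 other genes with at least 4 regions in each protein were compared, which leaves Gbx2 out. Nearest to Tbx3 were Trmt9b, Nhsl1 and Arid5b, at distances of 0.136, 0.139 and 0.142. Nearest to Zfp42 were Foxo1, Bach1 and Gtf2e2, at 0.147, 0.156 and 0.156. For Foxo1, 88.2% and 88.2% of MED1 regions were called at 2 h, against 52.9% and 58.8% at 0 h, beside 83.3% and 88.9% at 2 h and 55.6% and 61.1% at 0 h for Zfp42. Nearest to Tcl1 were Dhrs7b, Mta3 and Prrc2b, at 0.236, 0.239 and 0.249, but with 6 regions in each protein the shares of Tcl1 are coarse.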

How the data were processed

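MED1 and MED24 ChIP-seq peaks of 8 libraries were used, 2 clones in each of 4 groups taken from the sample titles. Per the submitters' processing notes, the tools were MACS2, Bowtie2 and bedtools and the build mm10. Their versions and settings, and how inputs were used, are not stated there. Each library has its own deposited list. The MED1 lists deposited by the authors have the narrowPeak layout, with a score, a fold enrichment (ratio), the −log10 p and q values and the summit of each peak. The MED24 lists hold the authors' deposited score and no fold, p or summit. The score equals 10 times −log10 q in MED1 and was read so in MED24, whose lists do not state it. The lowest score was 20 in every list. Peak names in the MED24 lists carry FLAG and a folder of another cofactor, EP300; the labels were followed. Depth is unknown, so no interval that needs it is given, and precision is limited by 2 clones per group.

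Peaks were merged within a protein at an overlap of 1 bp and assigned to the nearest protein-coding gene span of the RefSeq GRCm38.p6 table within 100 kb. A region took the best −log10 p (MED1) or score (MED24) of its peaks in a library. Ranks of retained regions were turned into normal scores and compared, 2 h minus 0 h, with limma 3.58.1 in R 4.3.3, with Benjamini-Hochberg adjustment over all retained regions and a threshold of 0.05. The prior spread followed the mean score, since the spread between clones depended on rank in these data. On MED1 ranks simulated with such a spread, one constant spread recovered no change. On the measured MED1 regions it did make calls, 6.36% of retained regions higher and 3.98% lower. The simulation therefore does not show how the constant spread performs on these data. The written design named limma without a spread that follows the mean score. That spread was chosen after the results of these genes under both settings had been seen. The constant spread is therefore given beside each call it changes. The labels name clones a and b at each time, which pairs the times by clone. They do not say whether the clones were derived independently, so p-values reach no further than these 2 clones. The limma spread of a region also drew on the other retained regions of the same libraries. Deviations of one clone at 2 h and 0 h did not correlate (r = -0.00544 in MED1 and -0.00656 in MED24). Exact permutation tests used scipy 1.17.1.

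Gained and lost regions, the 2 best ranked retained regions per gene and protein, and those of the largest shift in one direction in both clones were described singly. Genes, lists and rules were chosen with earlier results of these data known. Promoter sequences were found for 3 of the 4 genes in a RefSeq table of GRCm38.p6; no genome sequence was used, so regions were not searched for motifs. Alternatives were a −log10 q of at least 10, 20000 peaks per library, 200 bp overlap, 20 kb, any region within 100 kb, pairing by clone, other rank scales and leaving out each library.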

Additional observations from a re-analysis of the deposited data

How the results depend on the processing

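With each library left out in turn, the number of gained regions of the 4 genes ran from 12 to 17 in MED1 and 11 to 15 in MED24, of lost ones from 9 to 15 and 7 to 10, and of retained ones from 16 to 22 and 23 to 26; fewer libraries decide each call there. The mean rank shift ran from -1.11 to 5.09 points in MED1 and from -7.7 to -5.03 in MED24, and the retained regions past the limma threshold from 3 to 4 and from 4 to 8. Within 20 kb of the genes, which leaves fewer regions, 2 MED1 regions were gained and 2 lost, and 2 MED24 regions were gained, 0 lost and 12 retained. With the 20000 highest ranked peaks per library 9 MED1 and 8 MED24 regions were retained, 10 MED24 regions were lost, and the mean shift was -2.28 points in MED1 and 2.21 in MED24 (2.24 at Tcl1, 1 region); the cause of these reversals was not tested. With a −log10 q of at least 10 the MED1 mean shift was -7.67 over 11 retained regions, of which 2 passed. The MED1 mean shift was also below 0 as a median over regions (-0.00806) and by fold enrichment (-1.85). With the replicate block by clone, 15.5 MED1 regions were gained and 15.5 lost, and 16 MED24 regions were gained and 11.5 lost. The block changed no limma call. Of the recomputed values for the 4 genes together, 6 reversed and 19 counts moved by over 1.5 times; the other 76 kept their direction, or for counts stayed within 1.5 times, although mean shifts among them changed in size, such as the MED24 mean of -2.81 points within 20 kb and -2.14 as a median, against -8.99. Without read numbers, an uncalled region cannot be told apart from one just under the calling threshold.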
